A study of Mus musculus with 23 samples.

Results

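The response of the wild-type nucleus accumbens to a single dose of cocaine was measured in 12 of the 23 samples of the series, the 6 wild-type cocaine and the 6 wild-type saline samples, taken by their labels. All animals were C57BL6 mice, and each received an intraperitoneal injection 1 h before the nucleus accumbens was punched out, of cocaine at 15 mg/kg or of saline. Each wild-type group held 3 males and 3 females. The other 11 samples came from heterozygotes carrying 1 copy of the S321X allele of Foxp2, a stop codon in place of a serine, of which 6 received cocaine and 5 saline. Their arrays entered the same fit and so share the estimate of spread behind the wild-type tests; otherwise they are used only to show where the wild-type response differed. No age is given in the labels, and each sample was 1 animal on 1 Illumina MouseWG-6 v2 array, so the values describe a single time point in whole tissue.

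The nucleus accumbens is the ventral part of the striatum, and most of its neurons are inhibitory projection neurons that carry either the dopamine receptor Drd1 or the receptor Drd2. Cocaine blocks the dopamine transporter, and the dopamine that accumulates acts with glutamate through cAMP and the ERK kinase on factors such as CREB and SRF already present in the nucleus. The genes they switch on without new protein synthesis, the immediate-early genes, include the Fos and Egr families of transcription factors, synaptic proteins such as Arc, and dual-specificity phosphatases (Dusp genes) that in turn remove phosphate from ERK and related kinases.

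Arrays were labelled by the number in the header of the raw table. Between 16314 and 17848 probes were detected on each wild-type array, and across probes any pair of these arrays correlated at r = 0.972 to 0.991, a description only, since probes are not replicates. Markers of striatal projection neurons were present. Of the 15 on the list 13 were measured, and each of these was detected on all 12 arrays. Most markers of cortical excitatory neurons were detected there too, so detection does not by itself check the tissue label. In Foxp2 itself, the log2 intensity ran from 7.02 through a median of 7.85 to 9.22 in heterozygous cocaine arrays and from 8.42 through 8.52 to 8.82 in heterozygous saline arrays. In wild type it ran from 7.89 through 8.58 to 8.94 after cocaine and from 8.94 through 9.10 to 9.27 after saline. Every heterozygous saline array thus lay below every wild-type saline array, while the genotypes overlapped after cocaine. A stop codon leaves the probed sequence in place, so the probe can read any RNA of the mutant copy that is present. The share of that RNA was not tested. These levels do not by themselves check the labels.

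At 1 h after injection, 11 of 10138 genes were higher in cocaine than in saline arrays (0.109% of genes), and 0 were lower. A gene was called at a limma adjusted p under 0.05, adjusted over all 18509 probes tested. Without adjustment, 474 genes were higher (4.68%) and 396 lower (3.91%) at p under 0.05. The 11 genes were the transcription factor genes Egr2, Fos, Fosb, Egr4, Fosl2 and Egr1, the effector genes Arc, Midn and Frmd6, and the phosphatase genes Dusp4 and Dusp1. Their increases ran from 1.35-fold in Egr1 to 3.83-fold in Egr2. The median log2 change of all genes was -0.00068, and of the 10138 genes 6 exceeded a log2 change of 1 upward and 1 downward. The count of 11 rested on some of the arrays. It was 5 without cocaine array 4, saline array 2 or saline array 7, 6 without cocaine array 12, cocaine array 24 or saline array 5, and 7 without saline array 15. Egr2, Arc, Fos, Midn and Egr4 passed the test in all 12 fits that left out 1 wild-type array each. A fit to the 12 wild-type arrays alone, with a smaller number of residual degrees of freedom, called 2 genes, Egr2 and Arc.

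The stretches upstream of 5 of the genes that rose are shown because they carry copies of the core of the cAMP response element, the letters bound by CREB. Each is the 250 bases before a transcription start in RefSeq (GRCm38.p6), read 5′ to 3′ on the strand of the gene. Capitals mark TGACG on either strand (written CGTCA where it lies on the opposite strand) and, in Egr2, also the CArG box, the letters bound by SRF.
Fos: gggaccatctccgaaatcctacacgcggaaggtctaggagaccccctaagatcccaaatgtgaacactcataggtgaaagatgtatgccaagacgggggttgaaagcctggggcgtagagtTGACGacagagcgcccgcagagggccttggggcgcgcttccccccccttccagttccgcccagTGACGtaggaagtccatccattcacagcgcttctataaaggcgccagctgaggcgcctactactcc
Fosb: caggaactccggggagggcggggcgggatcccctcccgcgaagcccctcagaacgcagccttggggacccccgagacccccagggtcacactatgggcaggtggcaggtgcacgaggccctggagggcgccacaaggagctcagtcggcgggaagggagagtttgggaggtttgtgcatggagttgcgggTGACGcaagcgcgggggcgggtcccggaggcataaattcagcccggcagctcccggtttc
Egr2: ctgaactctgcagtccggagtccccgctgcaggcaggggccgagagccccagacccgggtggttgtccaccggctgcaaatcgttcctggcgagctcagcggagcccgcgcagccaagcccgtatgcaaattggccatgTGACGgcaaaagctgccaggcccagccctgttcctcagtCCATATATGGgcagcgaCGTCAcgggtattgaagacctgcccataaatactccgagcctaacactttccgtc
Egr4: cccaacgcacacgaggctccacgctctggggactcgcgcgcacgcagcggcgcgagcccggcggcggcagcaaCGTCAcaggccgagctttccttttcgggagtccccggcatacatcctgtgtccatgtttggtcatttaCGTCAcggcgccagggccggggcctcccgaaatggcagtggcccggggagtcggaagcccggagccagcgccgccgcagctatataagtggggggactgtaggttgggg
Dusp1: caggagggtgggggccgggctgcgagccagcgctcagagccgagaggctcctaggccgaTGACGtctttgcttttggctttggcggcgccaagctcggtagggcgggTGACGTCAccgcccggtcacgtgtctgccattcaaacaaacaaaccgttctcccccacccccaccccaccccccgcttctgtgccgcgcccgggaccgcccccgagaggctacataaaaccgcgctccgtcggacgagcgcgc
The Fos stretch lies at chr12:85473640-85473889 on the plus strand, the Fosb stretch at chr7:19310046-19310295 on the minus strand, and the Egr2 stretch at chr10:67537619-67537868 on the plus strand. The Egr4 stretch lies at chr6:85513590-85513839 and the Dusp1 stretch at chr17:26508473-26508722, both on the minus strand.

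In Fos the core lay at bases -129 to -125 and -66 to -62 from the start. In Egr2 it lay at -111 to -107 and -55 to -51, on both sides of the CArG box at -72 to -63. In Dusp1 3 copies were found, and the pair at -143 to -139 and -140 to -136 overlap to form the full element TGACGTCA. RefSeq promoter windows, from 250 bases before to 50 after a start, were found for 8 of the 11 genes; Arc, Dusp4 and Egr1 were not matched. TGACG was found on either strand in a window of 6 of these 8 genes (Egr2, Fos, Fosb, Egr4, Midn and Dusp1), and 23% of all 27025 genes with a window held it. By window, 8 of the 13 windows of these genes held it, against 20.8% of all 32851 windows; the Egr2 windows overlap each other. The full element was found in Dusp1 alone, against 2.03% of all genes, and the CArG box in Egr2 alone, against 1.81%. The EGR site GCGNGGGCG was found in Fosl2, Frmd6 and Fosb, against 6.27% of all genes, and the AP-1 site TGANTCA in 0 of the 8 genes, against 8.97%. These matches describe letters, not binding, and sequence outside the windows was not searched.

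Egr2, a zinc finger transcription factor, had the largest increase of the genes called. Its log2 intensity ran from 9.97 through a median of 10.53 to 11.75 on the 6 cocaine arrays and from 8.29 through 8.72 to 9.16 on the 6 saline arrays. The lowest cocaine array stood above the highest saline array. The change was 1.94 ± 0.25 (SE) on the log2 scale, with a limma adjusted p of 0.00132. Egr4, another member of the family, ran from 12.08 through 12.30 to 12.76 on cocaine arrays and from 11.27 through 11.53 to 11.81 on saline arrays, again without overlap. Its change was 0.84 ± 0.14 (adjusted p = 0.00971). Egr1 had the smallest change of the called genes, 0.43 ± 0.08 (adjusted p = 0.0234). It ran from 14.44 through 14.61 to 14.80 after cocaine and from 14.08 through 14.17 to 14.36 after saline. The groups were separate here too, and the call was lost in 7 of the 12 fits without 1 array. Egr3, added here after its values were seen to complete the family, differed by 0.24 ± 0.09 and did not pass the test (adjusted p = 0.526).

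Fos, which pairs with Jun proteins to form the AP-1 factor, ran from 10.61 through 11.04 to 11.38 on cocaine arrays and from 9.12 through 9.40 to 10.59 on saline arrays. The groups were separate, but saline array 17 lay just under the lowest cocaine array. The change was 1.44 ± 0.22 (adjusted p = 0.00592). Fosb, whose truncated product accumulates in the striatum during repeated cocaine, ran from 8.77 through 9.43 to 10.18 after cocaine and from 8.19 through 8.64 to 8.84 after saline. Here 5 of the 6 cocaine arrays exceeded every saline array, and cocaine array 13 lay within the saline range. The change was 0.93 ± 0.18 (adjusted p = 0.0426), and it lost its call in 10 of the 12 fits without 1 array. Fosl2, which encodes the Fos-related protein Fra-2, ran from 9.79 through 10.20 to 10.58 after cocaine and from 8.99 through 9.42 to 9.78 after saline. Its groups were separate by a narrow margin, with a change of 0.77 ± 0.13 (adjusted p = 0.0186) that lost its call in 5 of the 12 fits without 1 array.

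The Jun genes, whose products are the partners of Fos, gave 0 calls. Junb, which had the largest change among them, ran from 9.09 through 9.94 to 10.77 on cocaine arrays and from 9.01 through 9.16 to 9.22 on saline arrays. The saline arrays were tightly grouped and 5 cocaine arrays stood above them, while cocaine array 13 did not. The change of 0.86 ± 0.20 did not pass the test (adjusted p = 0.173). Jun and Jund, named after their values were seen, differed by 0.02 ± 0.13 and 0.07 ± 0.14.

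**Figure D1:**
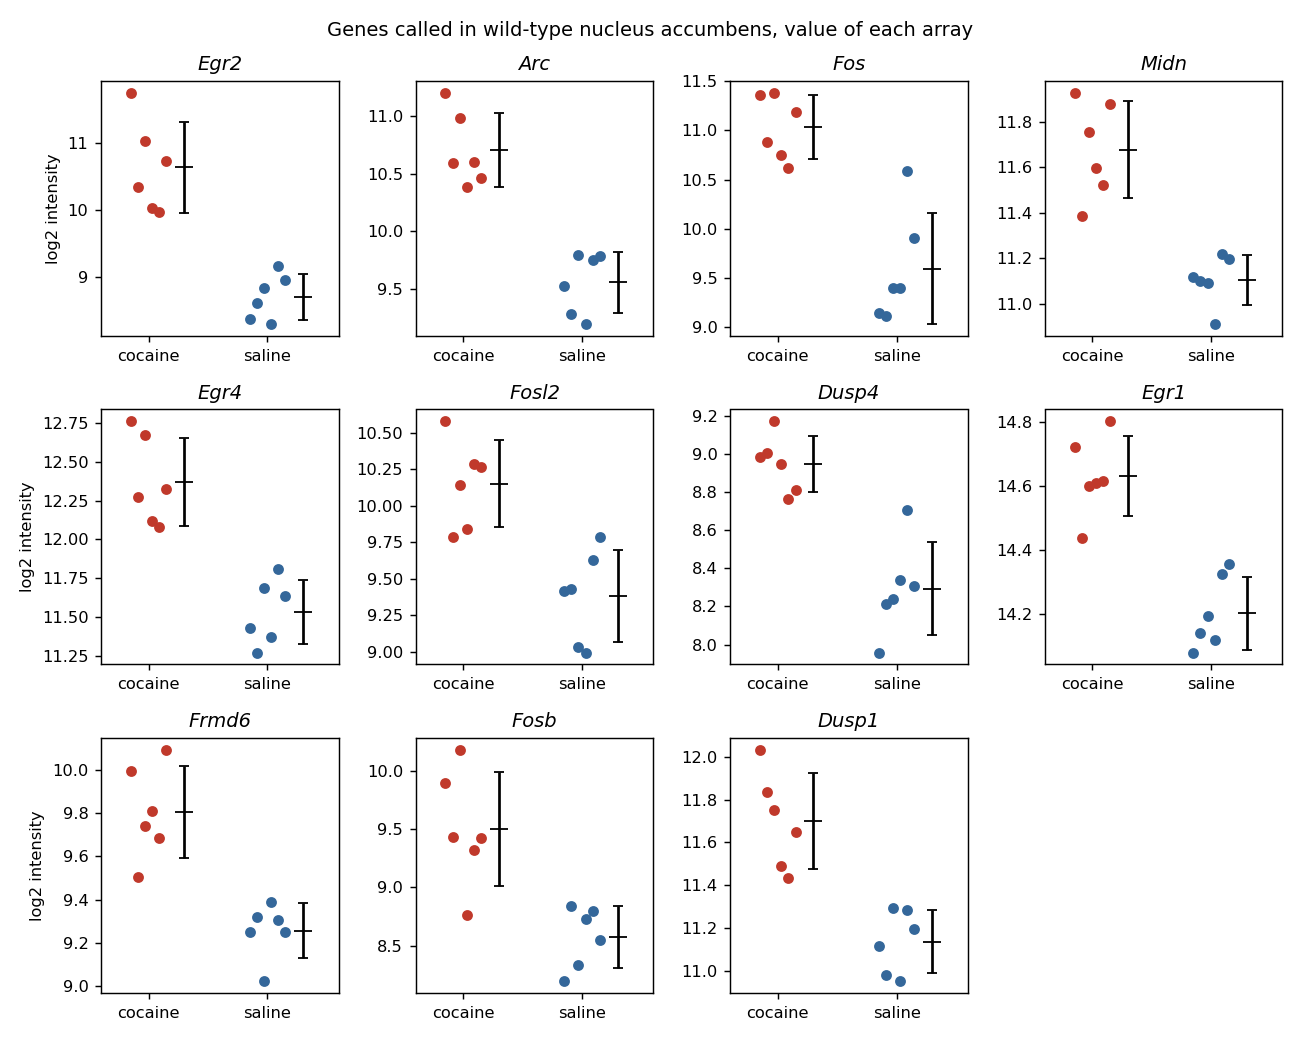
Log2 intensity of the 11 called genes on each wild-type array, with cocaine arrays left and saline arrays right; points are arrays (n = 6 each), the horizontal tick is the mean and the bar 1 SD, and each panel has its own axis. In 10 panels the 6 cocaine arrays lie above the 6 saline arrays, and in Fosb 5 of 6 do.

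The list of immediate-early transcription factors held 31 genes, of which 21 were measured. Of these 6 rose, 0 fell and 15 did not pass the test, where 0.109% of all genes were called higher. The median log2 change of the list was 0.43, against -0.00068 over all genes, and 19 of the 21 members were positive. The groups were separate, with cocaine higher, in 7 members, against 0.355% of all genes. The members without a call included Npas4, a factor restricted to neurons and induced by calcium entry. It ran from 7.49 through 7.90 to 8.32 after cocaine and from 6.81 through 7.02 to 7.31 after saline, with no overlap, a change of 0.88 ± 0.18 and an adjusted p of 0.0734. Bhlhe40, a repressor that also acts on the circadian clock, differed by 0.44 ± 0.11 (adjusted p = 0.294, 5 of 6 cocaine arrays above all saline arrays), and Cebpb by 0.28 ± 0.09 (adjusted p = 0.486, 6 of 6). Nr4a1 had no tested probe.

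Arc, a protein of the postsynaptic density that drives the removal of AMPA receptors from synapses, was the leading effector gene. It ran from 10.39 through 10.60 to 11.20 on cocaine arrays and from 9.20 through 9.64 to 9.80 on saline arrays. The groups were well apart, and the change was 1.15 ± 0.16 or 2.21-fold (adjusted p = 0.00352). Midn encodes midnolin, a nuclear protein that carries other proteins, including products of immediate-early genes, to the proteasome. It ran from 11.39 through 11.68 to 11.93 after cocaine and from 10.91 through 11.11 to 11.22 after saline, with a change of 0.57 ± 0.09 (adjusted p = 0.00971). Another probe of Midn gave 0.63 ± 0.10 with the same adjusted p. Frmd6, a FERM domain protein linked to the Hippo pathway, ran from 9.50 through 9.78 to 10.09 after cocaine and from 9.02 through 9.28 to 9.39 after saline. The groups did not overlap, and the change was 0.55 ± 0.10 (adjusted p = 0.0269), which lost its call in 8 of the 12 fits without 1 array.

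Of the 30 measured activity-regulated effectors these 3 rose, 0 fell and 27 did not pass the test, where 0.109% of all genes were called higher. The median change was 0.22, and 13 members were higher and 0 lower at an unadjusted p under 0.05, against 4.68% and 3.91% of all genes. Bdnf, the growth factor of activity-dependent plasticity, differed by 0.90 ± 0.32 without passing the test (adjusted p = 0.504). It ran from 8.53 through 9.27 to 9.74 after cocaine and from 7.77 through 8.23 to 8.98 after saline, and 4 of 6 cocaine arrays stood above all saline arrays. Per1, a clock gene also induced by glucocorticoids, differed by 0.39 ± 0.13 (adjusted p = 0.483). Homer1, a scaffold of metabotropic glutamate receptors, differed by -0.07 ± 0.10 (adjusted p = 0.891), and the probe was not matched to either of its isoforms. Ccn1 and Tiparp, picked out after their values were seen, were detected on 4 of 6 cocaine arrays and 0 of 6 saline arrays each, and did not pass the test (adjusted p = 0.391 and 0.419).

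The phosphatases that limit the MAP kinases formed another group. Of the 14 measured MAP kinase feedback genes 2 rose, 0 fell and 12 did not pass the test, where 0.109% of all genes were called higher. The list median was 0.08. Dusp1, a nuclear phosphatase of the p38, JNK and ERK kinases, ran from 11.44 through 11.70 to 12.03 on cocaine arrays and from 10.95 through 11.15 to 11.29 on saline arrays. The groups were separate, and the change of 0.56 ± 0.11 fell just inside the threshold (adjusted p = 0.04995). It lost its call in 9 of the 12 fits without 1 array. Dusp4, also nuclear, ran from 8.76 through 8.96 to 9.17 after cocaine and from 7.96 through 8.27 to 8.71 after saline, with a change of 0.65 ± 0.12 (adjusted p = 0.0186). Its call too was lost in 5 of those 12 fits. Another probe of Dusp4 gave 0.58 ± 0.17 and did not pass (adjusted p = 0.405).

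Dusp6, the cytoplasmic phosphatase of ERK, gave different calls on its probes. The probe that represents it ran from 11.41 through 11.65 to 11.84 after cocaine and from 10.96 through 11.20 to 11.40 after saline, a change of 0.47 ± 0.11 that did not pass the test (adjusted p = 0.173). Another probe changed by 0.63 ± 0.11 and did pass (adjusted p = 0.0139). Dusp5, a nuclear phosphatase of ERK, ran from 7.59 through 8.01 to 8.28 after cocaine and from 7.14 through 7.44 to 7.47 after saline. Its groups did not overlap, and its change of 0.59 ± 0.12 did not pass the test (adjusted p = 0.0734). The other 10 feedback genes had changes between -0.15 and 0.17. A further called probe, with a change of 0.70 ± 0.13 (adjusted p = 0.0269), has no gene in the annotation, so 14 probes were called in all.

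**Figure D2:**
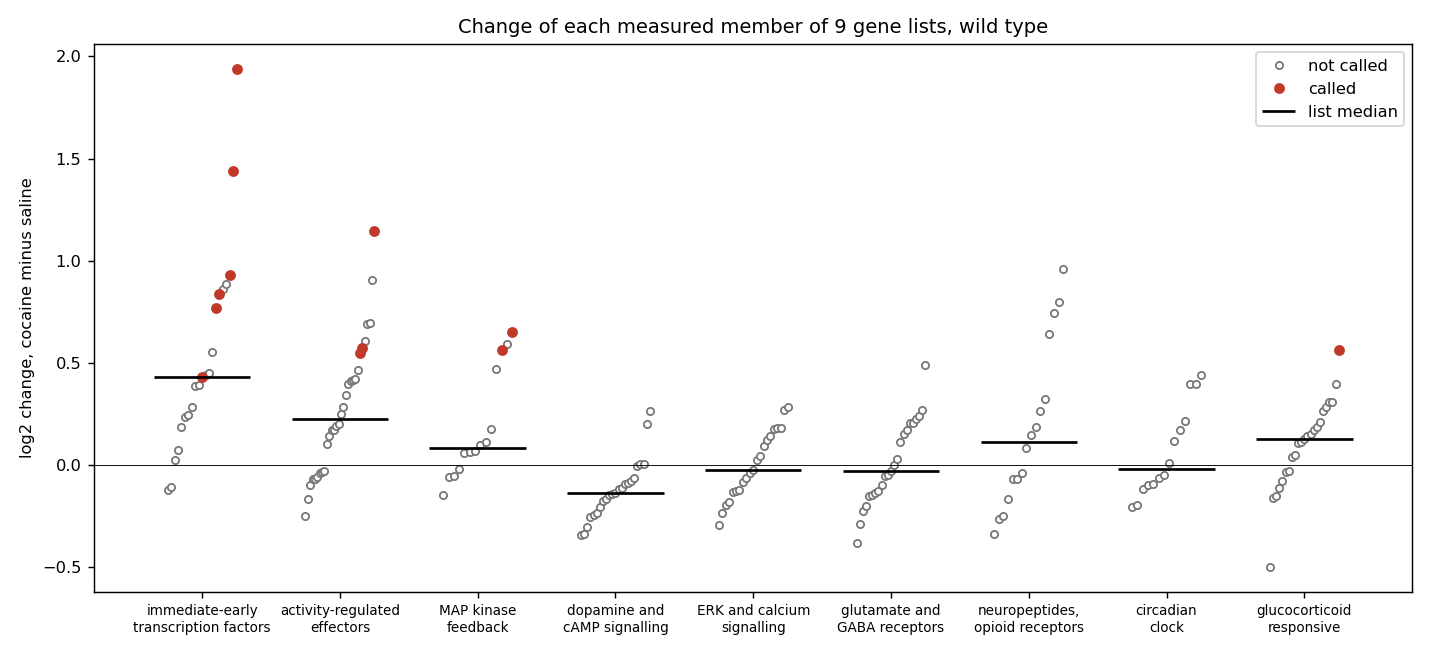
Log2 change (cocaine minus saline, wild type) of each measured member of 9 gene lists; filled points are called genes, open points are not called, and the line is the list median. Called genes are found in the immediate-early (6 of 21), effector (3 of 30), MAP kinase feedback (2 of 14) and glucocorticoid-responsive (1 of 23, Dusp1 again) lists, against 0.109% of all genes. The other 5 lists have 0 called members. Ccn1, Tiparp, Rasgrf2 and Grp, not detected after saline, are drawn from their measured means.

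Genes of the signalling steps between the receptor and the nucleus gave 0 calls. Of 23 measured genes of dopamine and cAMP signalling 0 passed the test, and the median was -0.14. Drd1 ran from 12.37 through 12.48 to 12.66 on cocaine arrays and from 12.69 through 12.80 to 12.93 on saline arrays. All 6 cocaine arrays lay below all saline arrays, but the change of -0.30 ± 0.10 did not pass the test (adjusted p = 0.436). Drd1 was not alone in this: 3 of the 23 genes were so separated, against 0.286% of all genes, and 19 were negative. Ppp1r1b, which encodes the phosphatase inhibitor DARPP-32, differed by -0.34 ± 0.12 (adjusted p = 0.504) and Drd2 by -0.15 ± 0.17 (adjusted p = 0.861). Of 21 genes of ERK and calcium signalling to the nucleus and 23 glutamate and GABA receptor genes 0 passed the test, with medians of -0.02 and -0.03. At an unadjusted p under 0.05, 3 of the dopamine and cAMP genes were lower, 1 of the ERK and calcium genes was higher, and 1 of the receptor genes was higher. Over all genes 3.91% were lower and 4.68% higher, so the last 2 counts are near the background.

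Neuropeptide and opioid receptor genes also gave 0 calls of 16 in limma, and 5 were higher and 0 lower at an unadjusted p under 0.05, against 4.68% and 3.91% of all genes. Penk, the enkephalin precursor, differed by -0.25 ± 0.17, Pdyn, the dynorphin precursor, by -0.17 ± 0.13, and Tac1, the substance P precursor, by -0.07 ± 0.11. Their adjusted p-values were 0.725, 0.748 and 0.902. Npy differed by 0.32 ± 0.09 (adjusted p = 0.391). The lists of circadian (14 measured), chromatin modifier (20), heat shock (14) and neurotrophin genes (14) had 0 calls, with medians of -0.02, 0.02, 0.03 and 0.10. Of the 23 glucocorticoid-responsive genes only Dusp1 was called, where 0.109% of all genes were called higher, and the list median was 0.13.

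Among genes that were not called, those with the smallest p on the higher side were Dusp5, Npas4, Mthfsd, Dusp6, Junb and Ranbp3l. The groups were separate with cocaine higher in 36 genes (0.355%) and with cocaine lower in 29 (0.286%), of which 17 and 5 exceeded a log2 change of 0.5. On the lower side the genes with the smallest p were Onecut2, Dnajb13, Mapk1ip1, Musk, Pik3c3 and Ubp1. Onecut2, a homeodomain transcription factor, ran from 7.15 through 7.98 to 8.32 after cocaine and from 8.41 through 8.67 to 9.09 after saline. All cocaine arrays lay below all saline arrays, with a change of -0.80 ± 0.17 and an adjusted p of 0.0734. Dnajb13 was detected on 0 of 6 cocaine arrays and 5 of 6 saline arrays. Set against the detection floor of the cocaine arrays, the saline mean bounds the measured fall at 1.22-fold or more, with no allowance for sampling error. The gene did not pass the test (adjusted p = 0.230), with mean log2 intensities of 5.90 after cocaine and 6.55 after saline. Musk, the receptor kinase of the neuromuscular synapse, differed by -0.54 ± 0.14 and Pik3c3, the Vps34 lipid kinase of autophagy, by -0.26 ± 0.07 (adjusted p = 0.294 each). Mthfsd, on the higher side, was detected on 6 of 6 cocaine arrays and 2 of 6 saline arrays and differed by 0.59 ± 0.13 (adjusted p = 0.133). Foxp2 differed by -0.63 ± 0.26 in wild type and did not pass the test (adjusted p = 0.547), although all 6 cocaine arrays lay below all 6 saline arrays, the closest by a very small margin.

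**Figure D3:**
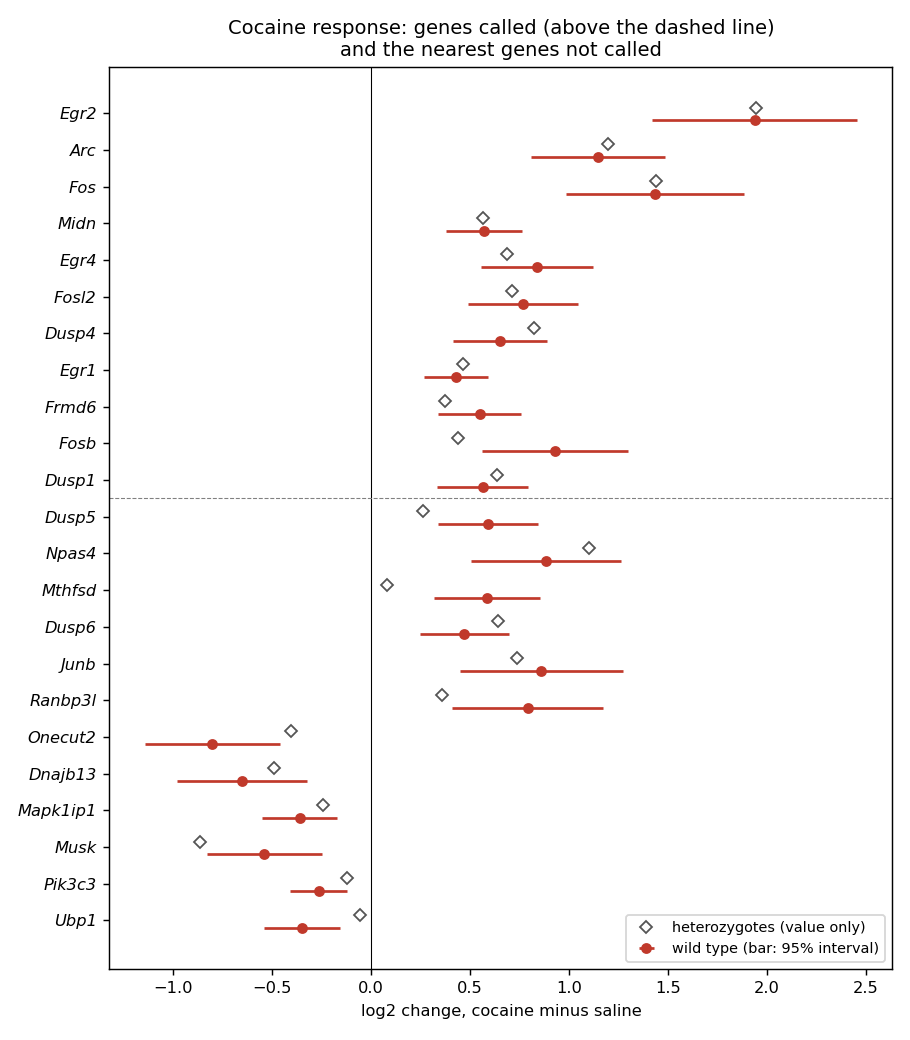
Log2 change after cocaine (x axis, cocaine minus saline) of the 11 called genes, above the dashed line, and the 12 nearest genes not called; open diamonds are heterozygotes (value only), filled points are wild type and bars their 95% intervals, not adjusted for the number of genes. In wild type Egr2 (1.94) and Fos (1.44) lie farthest right and Onecut2 (-0.80) farthest left; Dnajb13, not detected after cocaine, is drawn from its measured means.

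The arrays of each group were not alike in the size of the response. Of the 11 called genes, cocaine array 4 was the highest cocaine array in 6 and array 12 in 3. Array 21 was the lowest in 5 and array 10 in 4. Among saline arrays, array 17 was the highest in 5 genes and array 15 the lowest in 5. The mean deviation of the 21 immediate-early factors, a score per array, ran from 0.12 through 0.22 to 0.40 on cocaine arrays and from -0.47 through -0.29 to -0.02 on saline arrays. The scores, which include the 6 called factors, did not overlap.

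Markers of other cells differed between the groups without passing the test. Fewer cells of a type and less RNA per cell cannot be told apart in bulk tissue. Of the 10 markers of cortical excitatory neurons 8 were measured, 7 of them positive, with a median of 0.46 and 0 calls. Their score ran from -0.33 through 0.24 to 0.63 on cocaine arrays and from -0.79 through -0.18 to 0.04 on saline arrays. Cocaine arrays 12, 13, 21 and 24 scored higher than every saline array, and arrays 4 and 10 did not. Each of the 8 was detected on all 12 arrays except Neurod6, on 4 cocaine and 3 saline arrays. The 13 striatal projection neuron markers were all negative, with a median of -0.21 and 0 calls, and 5 of 6 cocaine arrays scored below all saline arrays. The lists of markers of Drd1 projection neurons (7 measured), Drd2 projection neurons (5), striatal interneurons (9) and septal neurons (5) had 0 calls, with medians of -0.07, -0.25, 0.19 and 0.04. Of the interneuron markers 4 were higher and 0 lower at an unadjusted p under 0.05, against 4.68% and 3.91% of all genes. The largest change among them was that of Vip (0.80 ± 0.30). All 6 cocaine arrays scored higher than every saline array on this list, where 6 markers were positive and 3 negative. The scores of the immediate-early, effector, MAP kinase feedback and neurotrophin lists were separate in the same way. Interneuron scores ran from 0.02 through 0.08 to 0.22 after cocaine and from -0.30 through -0.12 to -0.00086 after saline. Markers of astrocytes (10), oligodendrocytes (8), their precursors (6), microglia (9), vessels (10) and choroid plexus and ependyma (2) also had 0 calls, with medians of 0.06, 0.06, 0.01, -0.05, -0.03 and -0.21. The 4 blood genes measured were positive, with a median of 0.36 and 0 calls.

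Cocaine array 4 had the lowest excitatory score of the cocaine arrays (-0.33), the highest striatal score (0.17) and the highest Egr2 and Arc. Array 10 had the next lowest excitatory score (-0.19) and was the lowest cocaine array in 4 called genes. Array 24 had the highest (0.63) and was the highest in 2, Egr1 and Frmd6. Array 13 had an excitatory score of 0.43 and the lowest Arc, Fosb, Junb and Npas4. Bdnf was 9.39, 9.74, 9.14 and 9.64 on arrays 12, 13, 21 and 24, all above the saline arrays, and 8.53 and 8.72 on arrays 4 and 10, within the saline range. Neurod2, an excitatory marker, and the neuropeptide gene Vip also stood above all saline arrays on arrays 12, 13, 21 and 24 only. With the excitatory score as a covariate 8 genes were called, of which 7 were among the 11. Dusp1, Dusp4, Egr1 and Fosl2 did not pass in that fit (adjusted p = 0.146, 0.0539, 0.0981 and 0.0507), while their changes stayed between 0.39 and 0.76. The part of tissue makeup in the other differences was not tested.

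**Figure D4:**
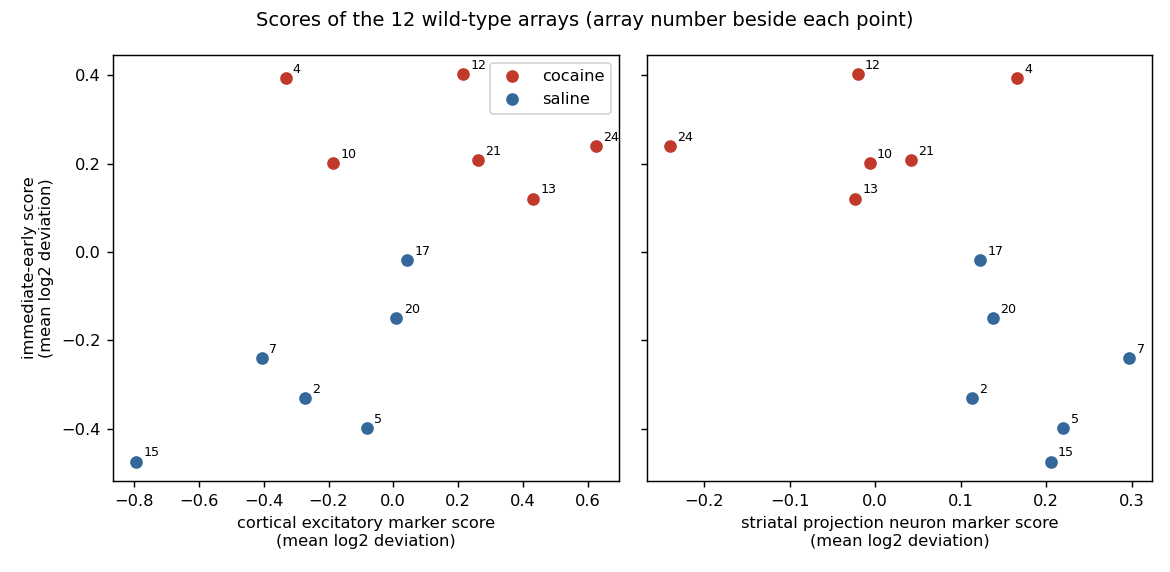
Immediate-early score of the 12 wild-type arrays (y axis) against the score of cortical excitatory markers (left) and of striatal projection neuron markers (right), each the mean log2 deviation of the list from the mean of all arrays; numbers are array numbers. The cocaine arrays do not overlap the saline arrays on the y axis (0.12 to 0.40, against -0.47 to -0.02); cocaine arrays 12, 13, 21 and 24 score from 0.22 to 0.63 on the excitatory markers, where there is no saline array (highest 0.04).

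The sex label belongs to the samples of the authors' processed values, and there 0 of 9274 genes differed between females and males in their response (limma, adjusted p under 0.05; 409 at an unadjusted p under 0.05). For the 10 called genes with values there, the estimated increase was smaller in females than in males in all 10, by 0.0026 to 1.12 on the log2 scale. In 5 of them the unadjusted p of the difference was under 0.05, and the lowest adjusted p was 0.954. Fosb gave 0.49 ± 0.21 in females and 1.42 ± 0.21 in males, and the difference was -0.93 with a 95% interval from -1.54 to -0.32. Fos gave 0.90 ± 0.26 in females and 2.02 ± 0.26 in males, a difference of -1.12 with an interval from -1.90 to -0.34. Midn gave 0.56 ± 0.14 in females and 0.59 ± 0.14 in males, with an interval of the difference from -0.43 to 0.37.

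In females, Fos stood at 10.57, 10.72 and 11.16 on the authors' log2 scale after cocaine and at 9.34, 9.86 and 10.55 after saline. In males it stood at 10.84, 11.33 and 11.35 after cocaine and at 9.05, 9.08 and 9.34 after saline. The saline females were more spread than the saline males, and within each sex the 3 cocaine animals lay above the 3 saline animals. In the same fit of both sexes, which gives them one estimate of spread, the female contrast gave 0 calls (462 genes at an unadjusted p under 0.05) and the male contrast 9, of which 6 were among the 11. The genes with the smallest p for a sex difference were Rhbdf1, Cyp2j9 and Ogfod2 (adjusted p = 0.954).

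**Figure D5:**
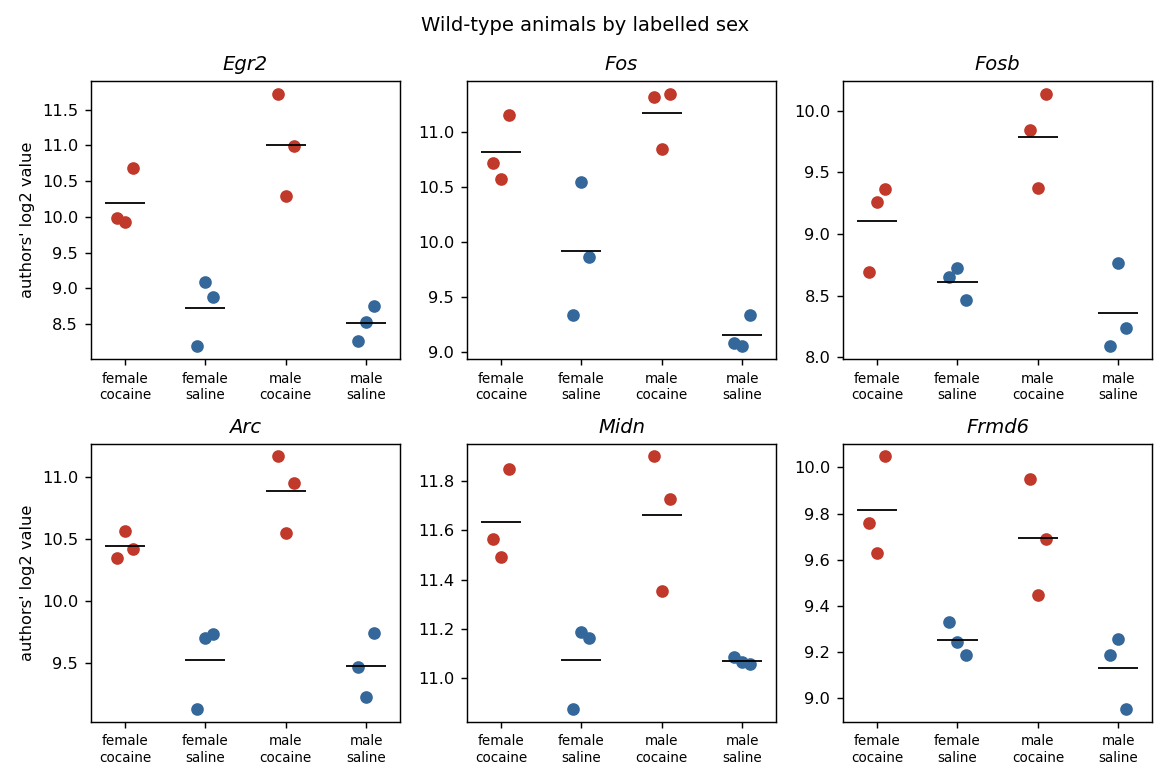
The authors' log2 values of 6 called genes in each wild-type animal, by sex and injection, with 3 animals in each column and the mean as a line. In Fos, for example, females reach 10.57 to 11.16 after cocaine and 9.34 to 10.55 after saline, and males 10.84 to 11.35 after cocaine and 9.05 to 9.34 after saline.

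In heterozygotes, 272 genes were called (2.68%), 198 of them higher (1.95%), and 9 of the 11 wild-type genes were among those called. Cell type markers also differed in heterozygotes. The cortical excitatory markers had a median change of 1.22 with 5 of 8 called higher, against 1.95% of all genes. The striatal projection neuron markers had a median of -0.46 with 3 of 13 called lower, against 2.68% of all genes called in either direction. The part of cell type markers in the 272 calls was not tested. The exceptions among the 11 genes were Frmd6, with a change of 0.37 in heterozygotes and 0.55 in wild type, and Fosb, with 0.44 in heterozygotes and 0.93 in wild type. The test of the difference between the genotypes called 0 of 10138 genes in limma (488 at an unadjusted p under 0.05). For the 11 genes the difference, heterozygotes minus wild type, lay between -0.49 in Fosb and 0.17 in Dusp4, and the lowest unadjusted p among them was 0.0721. Egr2 changed by 1.95 in heterozygotes and 1.94 in wild type, and Fos by 1.44 in both. Bdnf, not called in wild type, changed by 1.99 in heterozygotes (adjusted p = 0.00432) and differed by 0.90 in wild type, a difference of 1.09 ± 0.46. The genes with the smallest p for a difference were Slc17a8, Tafa1 and Smyd5 (adjusted p = 0.927).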

How the data were processed

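Total RNA from tissue punches was labelled as biotin-cRNA and hybridised to Illumina MouseWG-6 v2 arrays, per the labels' protocols. The deposited raw table holds probe intensity, called non-normalized per the file headers; 24.9% to 30.2% of values on each wild-type array are below 0, so background had already been subtracted, with software that the sources used here do not give. It also holds a detection p-value for each probe and array, per the file headers. The authors' deposited processed log2 values were quantile normalized between arrays, as the values themselves show.

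Here the neqc function of limma 3.58.1 (R 4.3.3) corrected background and normalized by quantiles (offset 16, negative-control moments inferred from the detection p-values). A probe was kept where at least 5 of 23 arrays gave it a detection p under 0.01 (18509 of 45281). By the array annotation 34885 probes have 1 gene, 18 several and 10378 none; 2645 tested probes without a single gene entered only the adjustment. A gene is its tested probe with the highest mean. All 23 arrays entered a limma fit of 4 group means, which left 19 residual degrees of freedom, with two-sided moderated tests and Benjamini-Hochberg adjustment over all probes. The number of arrays limits the precision.

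The raw columns name the group and an array number but no animal, so sex and replicate number were fitted only in the authors' values (9274 genes). Where the label replicate numbers were used to pair animals, the correlations of their deviations lay between -0.14 and 0.14 and 0 of 6 cocaine animals correlated best with its own number, so the numbers were not treated as pairs. The labels call the samples biological replicates.

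Genes named are all those called; the 6 with the smallest p on each side that were not called; up to 3 members of each functional list and 2 of each cell type list; 11 chosen genes such as Drd1 and Bdnf; and the 3 leading genes of each difference. The members and gene lists were chosen with earlier results of these data known, so a list count is a description and not independent evidence. Promoter sequences came from RefSeq (GRCm38.p6). Alternatives were other normalizations, filters, moderation, weights, blocks, covariates and left-out arrays.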

Additional observations from a re-analysis of the deposited data

Results flagged for a closer look

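In 6 of 212 groups of wild-type values checked, 1 array stood apart from the other 5 of its group by a Dixon test at the 95% level, and chance alone gives about 1 in 20. After cocaine, array 4 read 7.34 for Musk, a receptor kinase of the neuromuscular synapse, against 6.64 to 6.87 on the other cocaine arrays. The same array read 14.97 for Hbb-bs, a haemoglobin gene, against 13.53 to 14.04 on the other cocaine arrays. Cocaine array 13 had a score of -0.15 for oligodendrocyte precursor markers, against -0.01 to 0.04 on the others. After saline, array 15 read 7.14 for Dusp5, against 7.36 to 7.47. Saline array 7 read 5.59 for Grm8, a metabotropic glutamate receptor, against 6.47 to 6.99. Saline array 5 read 8.22 for Aif1, a microglial marker, against 7.81 to 7.93.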

How the results depend on the processing

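The count of 11 genes was 9 to 13 in the authors' values, under plain quantile normalization, with an offset of 50, with every probe kept or only those detected on all arrays, with array weights, trended and robust moderation, blocks of 6 array numbers and in the male contrast. It was 8 with the excitatory score as a covariate and 14 over all probes. It was 2 in the 12 wild-type arrays alone and 3 with a sex term in the 12 wild-type samples, 2 of these among the 11. It was 0 in the female contrast (462 at an unadjusted p under 0.05). The first 2 fits used the 12 wild-type samples only. The female contrast came from the fit of both sexes, where equal numbers and a shared estimate of spread make the standard errors equal. At an unadjusted p under 0.05 the 12 arrays alone gave 924 genes, against 870 in the main fit. The cause of these lower counts of calls was not tested. With a replicate block in the authors' values of the 12 wild-type samples 0 genes were called (819 at an unadjusted p under 0.05), and the cause was not tested. Leaving out 1 array gave 5 to 13. Across 26 settings Egr2 and Arc passed in 24, Dusp1 in 8, and the direction of the called genes did not turn. Of 70 other named genes in 1775 results, 1747 kept direction and call, 16 passed the test (Npas4, Onecut2, Dusp5 and Junb) and 12 turned. These were Clic6 (0.21 in males, 0.14 with the excitatory score), Cyp2j9 (0.40 in males, 0.039 with the excitatory score, -0.17 to 0.0060 leaving out 1 array, positive without saline array 17), Rhbdf1 (0.35 in females, -0.11 to 0.022 leaving out 1 array, positive without saline array 2 or cocaine array 12), Ogfod2 (0.43 in females, -0.20 to 0.0057 leaving out 1 array, positive without saline array 2), Gpr17 (-0.026 in females) and Homer1 (0.036 in females). Cyp2j9, Rhbdf1 and Ogfod2 were named for their small p of a sex difference, so their turn in 1 sex goes with that choice. It is no separate result. The cause of the other turns was not tested. The tests of sex and genotype differences gave 0 calls in all settings run. Dim probes near the detection floor bound only a change.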
